A study of Mus musculus with 8 samples.

Results

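The miR-30 family was followed in early atherosclerotic plaque and undiseased artery of mice by real-time PCR of 517 mouse miRNA assays. Its members were taken by assay name, once the 7-digit assay number was removed, and comprised 5 guide strands (mmu-miR-30a, mmu-miR-30b, mmu-miR-30c, mmu-miR-30d and mmu-miR-30e) and 2 star strands (mmu-miR-30a* and mmu-miR-30e*), written here without the species prefix. In the old catalogue behind the assay names, a star stands for the less abundant strand of a hairpin. These 7 of 517 assays were all detected in all 8 samples. The guide strands lay on panel 1 of the assays and the star strands on panel 2.

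Both groups came from female apoe-/- mice, which lack apolipoprotein E throughout the body and develop plaque on a fat-rich diet, aged 6 to 8 weeks by the labels and given a high fat diet for 3 months. The first group was early plaque of the aortic root and the second morphologically normal arterial tissue labelled as artery, each with 4 biological replicates cut out by laser capture microdissection. The vessel site and the presence of plaque cannot be told apart, and whether 1 mouse gave both tissues is not stated in the labels. There was no group without the deletion or without the diet. Captured tissue holds several cell types, so fewer cells of a type and less RNA per cell cannot be told apart either.

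MicroRNAs pair through a seed near their 5′ end with messenger RNAs, which are then less translated and less stable. The miR-30 guide strands share 1 seed and so many targets, and they are abundant in differentiated tissues such as heart, kidney and vessel wall. miR-30b and miR-30c restrain Runx2, a transcription factor of bone formation, in human smooth muscle cells, miR-30 members target the Notch ligand Dll4 in endothelial cells, and miR-30c acts in mouse liver on the transfer protein that loads lipid onto lipoproteins.

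The mature strands are shown because the assays had to tell near-identical RNAs apart. Of the 7 members 5 were matched by name in the RefSeq table used (build GRCm38.p6). They are printed 5′ to 3′, with the seed, bases 2 to 8, in capitals.
miR-30a: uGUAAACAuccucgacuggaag
miR-30c: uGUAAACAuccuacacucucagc
miR-30e: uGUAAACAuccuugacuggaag
miR-30a*: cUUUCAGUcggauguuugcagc
miR-30e*: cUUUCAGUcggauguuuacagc
miR-30a, miR-30c and miR-30e share the seed GUAAACA and the 2 star strands share UUUCAGU. Counted from 1 at the 5′ end, miR-30a and miR-30e differ by 1 base, C13U, and miR-30a* and miR-30e* also by 1, G18A. miR-30a and miR-30c differ at 5 of the 22 positions compared. How far an assay also read its nearest relative was not tested.

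The 2 hairpins that gave both measured strands are printed with the mature strands in capitals.
Mir30a: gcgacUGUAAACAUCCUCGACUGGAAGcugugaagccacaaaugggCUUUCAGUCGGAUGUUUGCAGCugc
Mir30e: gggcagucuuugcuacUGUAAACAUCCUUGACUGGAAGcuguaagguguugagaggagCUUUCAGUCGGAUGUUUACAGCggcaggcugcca
Mir30a lies on the plus strand at chr1:23272269-23272339 and Mir30e on the minus strand at chr4:120772606-120772697, within the span of Nfyc, which encodes a subunit of the transcription factor NF-Y. Mature miR-30c is made from Mir30c-2 (chr1:23291701-23291784, plus strand), the next miRNA gene to Mir30a, and from Mir30c-1 (chr4:120769534-120769622, minus strand), the next to Mir30e. miR-30b and miR-30d come from neighbouring genes on chromosome 15. The 5 guide strands thus come from 3 gene pairs, and miR-30c belongs to 2 of them.

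The measure was the raw threshold cycle (Ct), the PCR cycle whose fluorescence first passed a fixed line; later cycles mean less RNA. A Ct under 35 counted as detected. Plaque gave fewer detected miRNAs (148 to 240) than undiseased artery (227 to 288), and the raw Ct averaged over the 124 miRNAs found in every sample was 28.0 ± 1.65 in plaque and 25.3 ± 0.885 in undiseased artery (SD, n = 4 each, exact permutation test, two-sided, p = 0.0571). That mean was subtracted from each sample, and the negative of the centred Ct is called the level, in cycles. At full amplification efficiency 1 cycle is 2-fold, but efficiencies were not measured and may differ, so levels are compared between samples and not between assays.

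Before any normalisation, 4 of the 5 guide strands came up later in all plaque samples than in any undiseased sample. The share of all miRNAs without overlap on raw Ct was not counted. Plaque came up later in general, and 47.1% of all 172 tested miRNAs were called lower on raw Ct (limma, adjusted p under 0.05). miR-30a, which restrains the autophagy protein Beclin 1 in human cells, had a raw Ct of 27.1, 29.4, 29.8 and 26.6 in plaque 1 to 4, against 23.9, 23.4, 23.3 and 26.1 in undiseased artery 1 to 4. miR-30b crossed at 24.7, 26.7, 27.4 and 24.3 in plaque 1 to 4 and at 21.5, 21.4, 21.0 and 23.6 in undiseased artery 1 to 4. In both miRNAs plaque 2 and 3 were latest, and undiseased artery 4 was the latest of its group and the nearest to plaque.

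miR-30c had a raw Ct of 24.7, 27.0, 27.8 and 24.1 in plaque 1 to 4, and of 21.3, 21.0, 20.5 and 23.0 in undiseased artery 1 to 4. miR-30d, which raises insulin expression in mouse beta cells, had 28.54, 31.77, 32.003 and 27.78 in plaque 1 to 4, against 25.28, 24.33, 24.47 and 27.13 in undiseased artery 1 to 4. Plaque 2 and 3 were again the latest and undiseased artery 4 the latest of its group, with no overlap between the groups. miR-30e gave 26.81, 28.55, 30.01 and 24.82 in plaque 1 to 4 and 23.86, 23.77, 23.59 and 25.27 in undiseased artery 1 to 4. Here the groups overlapped, since plaque 4 came up earlier than undiseased artery 4.

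The star strands also overlapped, through the same sample. miR-30a* had a raw Ct of 26.8, 29.7, 30.3 and 24.8 in plaque 1 to 4, against 23.7, 23.6, 22.9 and 25.3 in undiseased artery 1 to 4. miR-30e*, which acts on the NF-κB inhibitor IκBα in human glioma cells, had 26.9, 29.4, 29.8 and 24.9 in plaque 1 to 4 and 23.9, 23.7, 23.0 and 25.6 in undiseased artery 1 to 4. The mean raw Ct of the 124 miRNAs also differed between the groups, by 2.70 cycles.

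**Figure D1:**
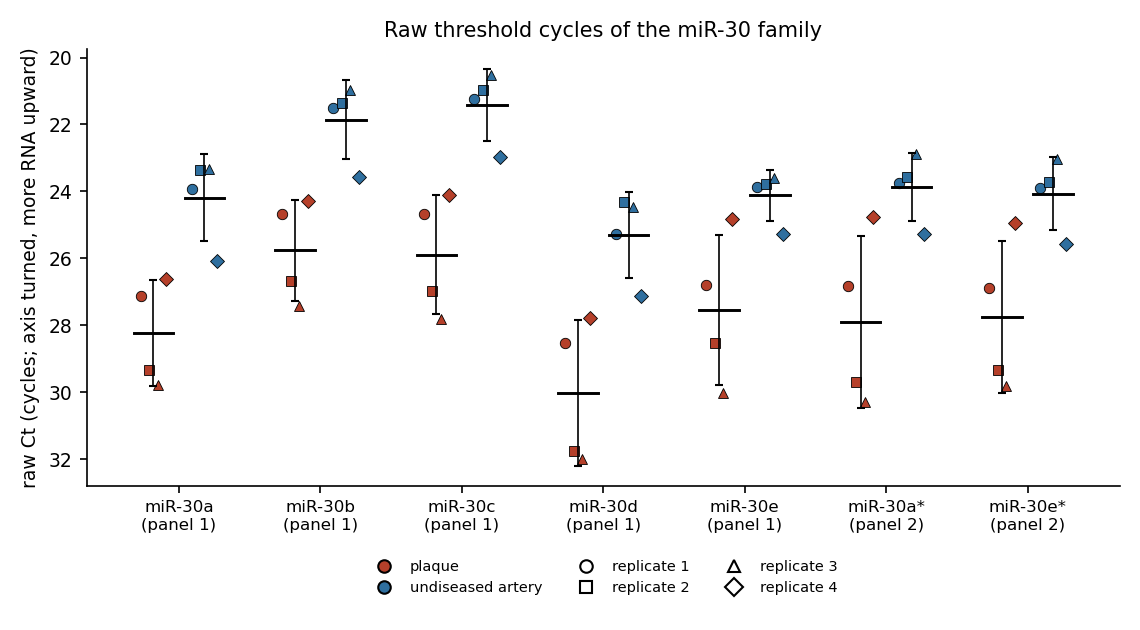
Raw Ct in cycles (vertical axis, turned so that more RNA is upward) of the 7 miR-30 members in 4 plaque and 4 undiseased artery samples, with group means and SD as black lines and bars. Plaque lies below undiseased artery without overlap for miR-30a, miR-30b, miR-30c and miR-30d, while plaque 4 reaches the undiseased range for miR-30e and the 2 star strands. The share of all miRNAs without overlap on raw Ct was not counted.

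After centring, miR-30d and miR-30c showed the greatest differences of the 7. The level of miR-30d was -1.41, -2.94, -2.08 and -1.51 in plaque 1 to 4, against -0.26, 0.67, 0.22 and -0.49 in undiseased artery 1 to 4. Its log2 fold change was -2.02 (SE 0.500, adjusted p = 0.0153 in limma with Benjamini-Hochberg adjustment over 172 tested miRNAs), a 4.06-fold lower level in plaque. The level of miR-30c was 2.46, 1.86, 2.11 and 2.14 in plaque 1 to 4 and 3.77, 4.04, 4.18 and 3.66 in undiseased artery 1 to 4. The spread within each group was small beside the gap between them, and its log2 fold change was -1.77 (SE 0.406, adjusted p = 0.0117), a 3.41-fold lower level.

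miR-30a and miR-30b also fell. The level of miR-30a was 0.01, -0.52, 0.14 and -0.36 in plaque 1 to 4, against 1.08, 1.63, 1.35 and 0.55 in undiseased artery 1 to 4 (log2 fold change -1.33, SE 0.436, adjusted p = 0.0399). That of miR-30b was 2.46, 2.17, 2.51 and 1.97 in plaque 1 to 4 and 3.53, 3.63, 3.72 and 3.07 in undiseased artery 1 to 4 (log2 fold change -1.21, SE 0.412, adjusted p = 0.0428). In each of these 4 guide strands every plaque sample lay below every undiseased sample.

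miR-30e did not pass. Its level was 0.32, 0.29, -0.09 and 1.44 in plaque 1 to 4, while undiseased artery 1 to 4 kept within 1.16, 1.23, 1.09 and 1.38 (log2 fold change -0.73, SE 0.458, adjusted p = 0.240). Plaque 4 was the highest of the 8 samples and the other 3 plaque samples were below all undiseased ones.

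Neither star strand passed. miR-30a* had levels of 0.29, -0.86, -0.38 and 1.49 in plaque 1 to 4 and 1.28, 1.44, 1.81 and 1.36 in undiseased artery 1 to 4 (log2 fold change -1.34, SE 0.544, adjusted p = 0.0777). miR-30e* had 0.24, -0.52, 0.10 and 1.32 in plaque 1 to 4, against 1.11, 1.29, 1.65 and 1.06 in undiseased artery 1 to 4 (log2 fold change -0.99, SE 0.487, adjusted p = 0.132). In both, plaque 4 lay among the undiseased samples. The fitted difference of miR-30a* was as large as that of miR-30a, but the SD of its level within plaque was 1.02 cycles, against 0.306 for miR-30a.

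**Figure D2:**
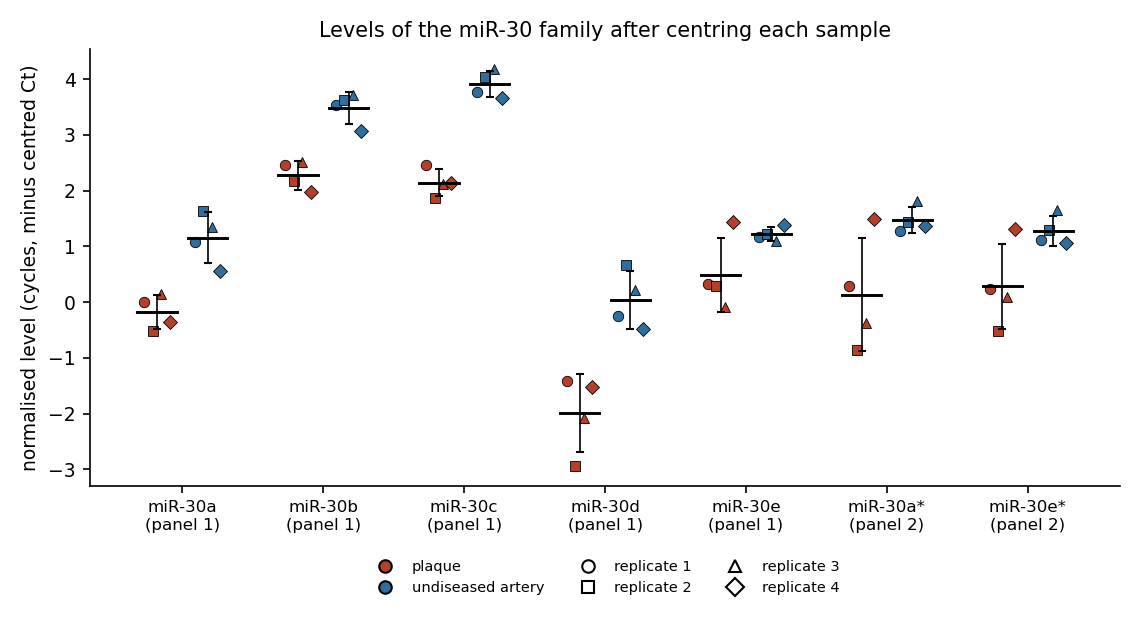
Level in cycles (negative of the Ct centred on the mean of 124 miRNAs) of the 7 miR-30 members by sample, with group means and SD. The miR-30c samples are the tightest of the 7 members in plaque (2.14 ± 0.243 in plaque and 3.91 ± 0.237 in undiseased artery), and plaque 4 stands above the other plaque samples for miR-30e, miR-30a* and miR-30e*.

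In all, 4 of the 7 members were called lower in plaque, 0 higher and 3 did not pass. Over all 172 tested miRNAs 18.6% were called lower and 34.3% in either direction. Lower levels without overlap between the groups were found for the same 4 members, and for 18.6% of all tested miRNAs. The median log2 fold change was -1.33 over the 7 members and -0.11 over the 172. The direction differed between the panels: on panel 1, 27.5% of 109 tested miRNAs were called lower and the median was -0.73, and on panel 2, 3.17% of 63 were called lower and the median was 0.82. Within panel 1, counted from the greatest fall, miR-30d ranked 12 of 109, miR-30c 22, miR-30a 36, miR-30b 39 and miR-30e 55, which is the panel's median. Within panel 2, miR-30a* ranked 4 of 63 and miR-30e* 8.

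**Figure D3:**
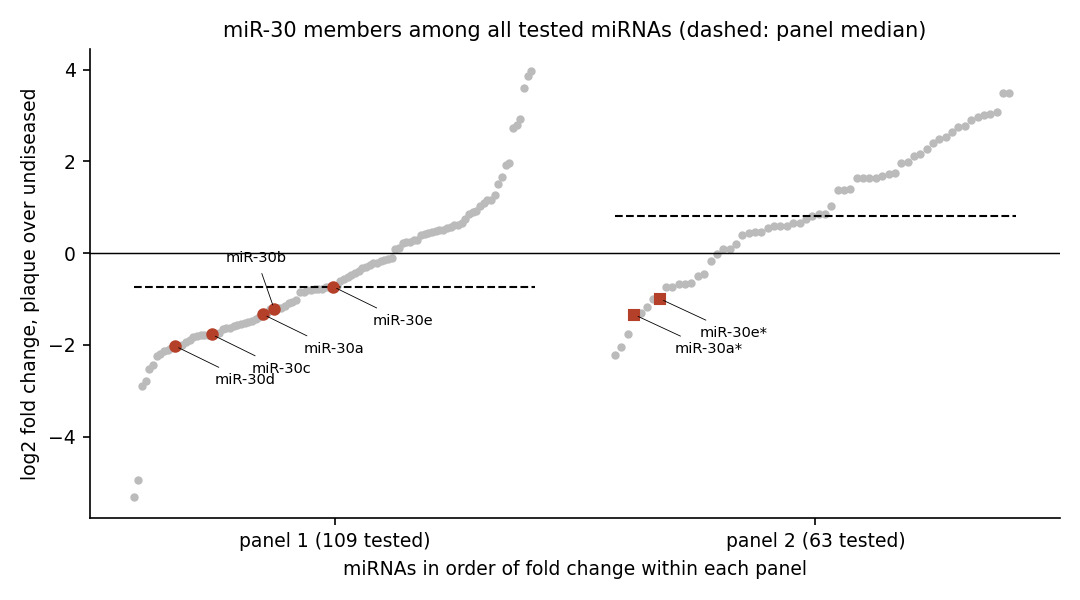
Log2 fold changes (plaque over undiseased artery, vertical axis) of all 172 tested miRNAs in rank order within panel 1 (109) and panel 2 (63), with the miR-30 members in red and each panel's median dashed. miR-30e lies on the panel 1 median of -0.73, the other guide strands below it, and the star strands lie near the low end of panel 2, whose median is 0.82.

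The reference decided which strands were called. When the panels were centred separately, miR-30a* (-2.42, adjusted p = 0.0259) and miR-30e* (-2.07, adjusted p = 0.0259) were called lower in limma, miR-30c (-1.22) and miR-30d (-1.47) kept their call, and miR-30a (-0.78, adjusted p = 0.164) and miR-30b (-0.66, adjusted p = 0.201) lost it. That again made 4 of 7, against 11.6% of all tested miRNAs called lower with this reference. The value of miR-30e was then -0.17 (adjusted p = 0.759). With the mean of the 6 control RNAs as reference the 7 values ran from -2.50 for miR-30d to -1.21 for miR-30e. Of the 7, 0 were called, against 1.16% of all tested miRNAs called lower, and 2 had an unadjusted p under 0.05. U6 as reference likewise gave 0 of 7 (0 at an unadjusted p under 0.05 too, against 1.16% of all tested miRNAs called). The median of the 124 miRNAs gave 4 of 7, against 17.4%, quantile normalisation 3 of 7, against 21.5%, and raw Ct all 7, against 47.1%. A detection cutoff of 32 gave 5 of 7, with miR-30a* added (-1.54, adjusted p = 0.0409), against 22.7%, and array weights gave 6 of 7, with both star strands added (-1.52, adjusted p = 0.0213 for miR-30a* and -1.20, adjusted p = 0.0410 for miR-30e*), against 23.3%. The call count stayed at 4 of 7 with undetected values set to the cutoff, against 15.1%, with only miRNAs detected in all samples, against 22.6%, and with a filter of 2 samples a group, against 15.1%. A detection cutoff of 38 left 2 of 7, against 14.5%. With mean raw Ct as a covariate 0 of 7 were called, against 3.49%, and with a 2-fold minimum in the test 0 of 7, against 1.74%. The exact permutation test per miRNA also called 0 of 7, against 0.00%. Its p cannot fall below 0.0286 with 4 against 4 samples and it called 0 of all 172 miRNAs in either direction, so its 0 is no result about miR-30. All 7 members were below 0 in each of the 25 alternatives tried, which used the same samples. Undetected values at the cutoff, other filters, the permutation test, a replicate block and the 2-fold minimum left the members' fold changes identical, so their sign could not change. In the reported fit 71 of 109 tested miRNAs on panel 1 were below 0, and 17 of 63 on panel 2.

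**Figure D4:**
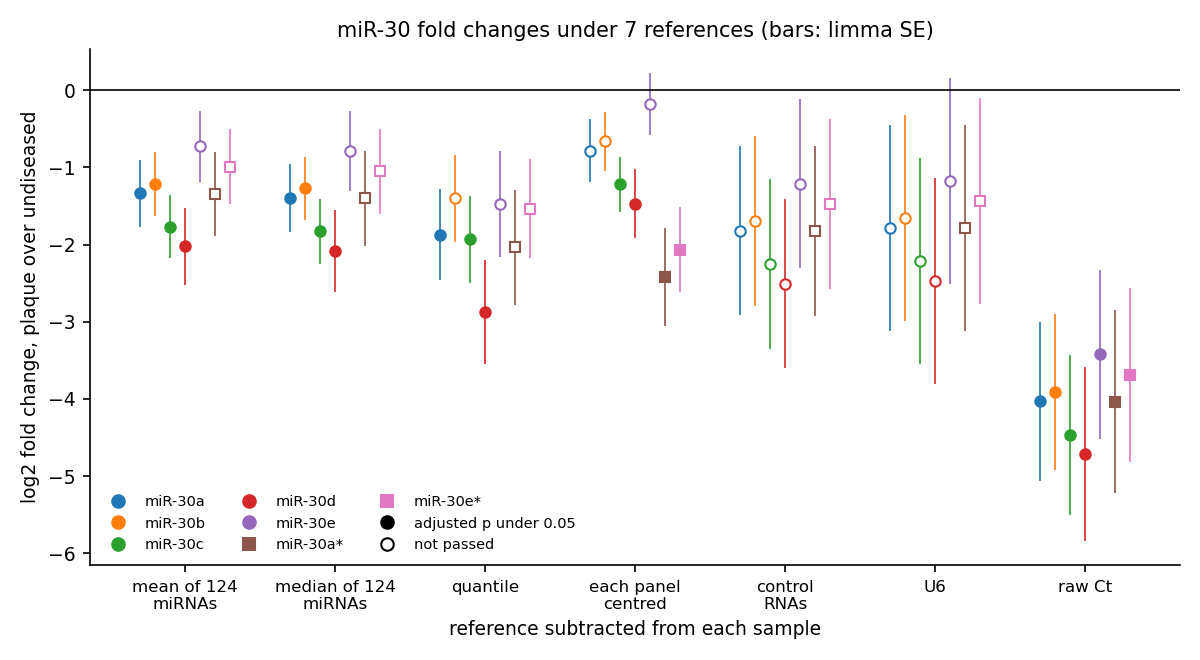
Log2 fold change (vertical axis, plaque over undiseased artery, bars are limma's SE) of the 7 members under 7 references, with filled symbols where the adjusted p was under 0.05. All values lie below 0, the calls of miR-30c and miR-30d hold in 5 of the 7, and the star strands (squares) are called with each panel centred and on raw Ct.

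Single samples moved the calls. Without plaque 4 all 7 members were called lower, with log2 fold changes of -1.04 for miR-30e, -1.79 for miR-30a* and -1.33 for miR-30e*, against 19.3% of all tested miRNAs in that fit. Without plaque 1 or undiseased artery 4, 4 of 7 were called, against 19.1% and 15.6%. Without undiseased artery 2 or 3, 0 of 7 were called in limma, against 4.07% and 4.05% of all tested miRNAs called lower. An unadjusted p under 0.05 was found for 3 and 4 of the 7. The share of all tested miRNAs at that unadjusted threshold was not counted. Without plaque 2, plaque 3 or undiseased artery 1 miR-30c and miR-30d alone were called, against 13.8%, 10.7% and 6.40%. miR-30c and miR-30d were called in 6 of the 8 fits that left out 1 sample (-1.87 to -1.67 and -2.21 to -1.70), and miR-30a and miR-30b in 3 of 8 (-1.54 to -1.17 and -1.36 to -1.11). Without plaque 2 and 3 together, the samples with the fewest detected miRNAs, 0 of 7 passed in limma, against 9.05% of all tested miRNAs called lower. The values included -1.51 for miR-30c and -0.48 for miR-30a*, and 4 of the 7 had an unadjusted p under 0.05.

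Differences between members of the same sample need no reference, and those among the guide strands lie within 1 panel. They are free of the amount of RNA only where both assays amplify with equal efficiency, which was not measured. The mean raw Ct was 2.70 cycles later in plaque. In undiseased artery miR-30c came up before miR-30b in all 4 samples, and in plaque the order was turned in 3 of 4. The Ct of miR-30c minus that of miR-30b was 0.002, 0.301, 0.396 and -0.176 in plaque 1 to 4, against -0.244, -0.406, -0.463 and -0.593 in undiseased artery 1 to 4. The groups did not overlap, and its 0.56 cycles gave p = 0.0286 in the exact permutation test (two-sided), the smallest that 4 against 4 samples allow, and an adjusted p of 0.171 over the 12 pairs compared. A positive difference means that miR-30c stood lower relative to miR-30b in plaque.

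miR-30c also stood lower relative to miR-30e in plaque. The Ct of miR-30e minus that of miR-30c was 2.14, 1.57, 2.20 and 0.70 in plaque 1 to 4, against 2.61, 2.81, 3.09 and 2.28 in undiseased artery 1 to 4. The gap was 1.65 ± 0.693 cycles in plaque and 2.70 ± 0.338 in undiseased artery (SD, n = 4 each), a difference of -1.04 without overlap (exact permutation p = 0.0286, adjusted p = 0.171). Mir30e and Mir30c-1 are neighbours, and miR-30c is also made from Mir30c-2. The gap of miR-30e to miR-30d moved by -1.29, the most of all 12 pairs, but the groups overlapped (exact permutation p = 0.0571, adjusted p = 0.171).

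Of the guide pairs, miR-30a and miR-30b, from different chromosomes, had the smallest difference between the tissues. The Ct of miR-30b minus that of miR-30a was -2.450, -2.682, -2.370 and -2.323 in plaque 1 to 4 and -2.447, -2.002, -2.371 and -2.519 in undiseased artery 1 to 4, a difference of -0.12 (exact permutation p = 0.486). miR-30d minus miR-30a was 1.80 ± 0.609 cycles in plaque and 1.12 ± 0.164 in undiseased artery (SD, n = 4 each), with a difference of 0.69 (exact permutation p = 0.0571, adjusted p = 0.171). Plaque 2 and 3, at 2.42 and 2.21, carried it, while plaque 4 at 1.16 lay within the undiseased samples.

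Of the 12 pairs, 0 passed an adjusted p of 0.05 by the exact permutation test and 2 had an unadjusted p under 0.05. The groups did not overlap in 2 of the 10 guide pairs, against 31.0% of all 3321 pairs of panel 1 miRNAs detected in every sample. The differences of the 10 guide pairs ran in size from 0.12 to 1.29 cycles, and the median size over all panel 1 pairs was 1.36 cycles. The leave-out fits gave 0 to 3 pairs with an unadjusted p under 0.05, and 0 passed in any of them. The smallest p of the exact permutation test was 0.0286 with 4 against 4 and with 3 against 4 samples. After adjustment over 12 pairs, only a few pairs at that value cannot pass, so these counts of 0 do not decide whether a pair differs.

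**Figure D5:**
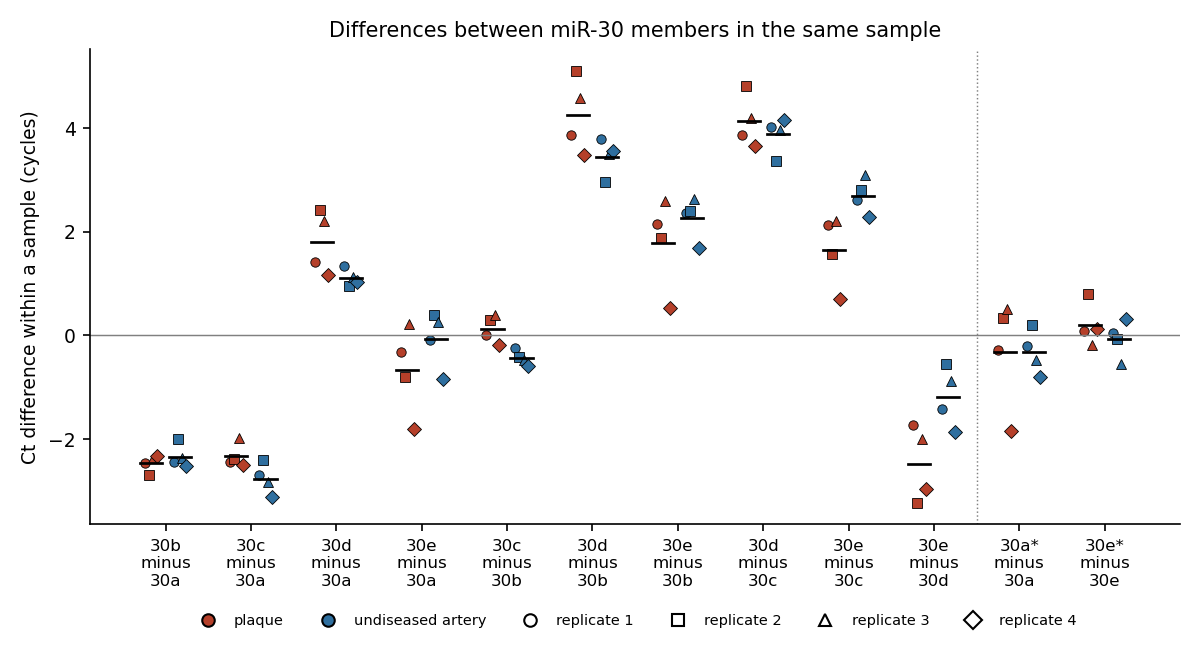
Ct difference in cycles between 2 miR-30 members of the same sample (vertical axis), for 10 pairs of guide strands and, right of the dotted line, each star strand minus its guide strand; lines are group means. Plaque and undiseased artery do not overlap for miR-30c minus miR-30b and for miR-30e minus miR-30c.

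Within each hairpin the difference between the strands overlapped between the tissues. The Ct of miR-30a* minus that of miR-30a was -0.279, 0.346, 0.518 and -1.85 in plaque 1 to 4, against -0.199, 0.193, -0.465 and -0.809 in undiseased artery 1 to 4. The means were -0.32 ± 1.08 cycles in plaque and -0.32 ± 0.423 in undiseased artery (SD, n = 4 each), and they differed by 0.005 (exact permutation p = 1). The Ct of miR-30e* minus that of miR-30e was 0.080, 0.806, -0.185 and 0.120 in plaque 1 to 4 and 0.053, -0.058, -0.551 and 0.321 in undiseased artery 1 to 4, a difference of 0.26 (exact permutation p = 0.429, adjusted p = 0.530). Plaque 4 stood lowest for the miR-30a pair and near the middle for the miR-30e pair.

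Each strand pair spans both panels and carries their shift. The mean Ct of panel 2 miRNAs minus that of panel 1 miRNAs was 0.119, -0.573, -1.45 and -0.004 in plaque 1 to 4, against 1.32, 1.23, 1.37 and 0.696 in undiseased artery 1 to 4, a difference of -1.63 (exact permutation p = 0.0286). For the 5 control RNAs present on both panels the same difference was -0.55. The strand differences of miR-30 above, 0.005 and 0.26, lay above both. Less the controls' shift, the strand difference was 0.56 for miR-30a (exact permutation p = 0.286) and 0.82 for miR-30e (exact permutation p = 0.0857), where a value above 0 means a star strand lower relative to its guide strand in plaque. Among the 3 other hairpins with the guide strand on panel 1, the star strand on panel 2 and both detected in all samples, the strand difference was -2.31 for miR-29b, -1.57 for miR-21 and 0.65 for miR-214. Whether the panels' shift acted on these assays was not tested.

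The miRNAs whose levels over the 8 samples were most like the mean of the 5 guide strands were miR-195, miR-92a, miR-497, miR-130a and let-7d. Each miRNA was set to a mean of 0 over the samples, and the root mean square difference from the guide strands' mean was 0.29 cycles for miR-195, 0.30 for miR-92a, 0.33 for miR-497 and 0.41 for both miR-130a and let-7d, against a median of 1.15 over the 117 other miRNAs detected in all samples. All 5 were on panel 1. Of the guide strands, which are part of that mean, miR-30c, miR-30a and miR-30b lay at 0.21 to 0.26, miR-30d at 0.43 and miR-30e at 0.55. The star strands, no part of it, lay at 0.43 for miR-30e* and 0.52 for miR-30a*. The closest pair of members was miR-30a with miR-30b (0.18), then miR-30a* with miR-30e* (0.26), and the most distant was miR-30d with miR-30e (0.86).

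Other miRNAs reported to act on the targets of miR-30 were detected unevenly. Of 11 miRNAs reported to target Runx2, 4 were tested and 3 were called lower: miR-30c itself, miR-218 (-2.89, adjusted p = 0.0146 in limma) and miR-204 (-2.24, adjusted p = 0.0307), while miR-133a gave -0.26 (adjusted p = 0.879). All 4 lay on panel 1, of whose tested miRNAs 27.5% were called lower, and their median was -2.01, against -0.73 for the panel. The list did not hold miR-30b, named above as acting on Runx2 and also called lower (-1.21, adjusted p = 0.0428 in limma). Of 6 miRNAs reported to target Ctgf, a matrix growth factor, 5 were tested and miR-30c alone was called lower (median -0.55), with 1.1002 for miR-133b (adjusted p = 0.0947) and -0.81 for miR-19b (adjusted p = 0.324). In the let-7 family, another set of abundant miRNAs of differentiated tissue on panel 1, 5 of 6 tested members were called lower (median -1.75), led by let-7e (-2.53) and let-7g (-2.19), against the same 27.5% and -0.73 for panel 1.

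Some of the cell type markers also differed between the groups, while others did not pass. Both smooth muscle miRNAs, miR-143 (-4.95) and miR-145 (-5.30), were called lower, against 27.5% of all tested miRNAs on their panel 1. Their mean level was 1.45 to 3.06 in plaque and 7.01 to 7.55 in undiseased artery. Of 6 tested leukocyte miRNAs, all on panel 1, miR-155 (2.79) and miR-146b (3.60) were called higher, against 7 of all 109 tested on that panel. The mean level of the 5 leukocyte miRNAs detected in all samples was -1.59 to 0.87 in plaque, against -2.22 to -1.21 in undiseased artery. The other 4 tested leukocyte miRNAs were not called, with 1.498 for miR-146a, 0.499 for miR-223, -0.22 for miR-142-3p and -0.85 for miR-150, and miR-142-5p was detected in 1 plaque and 4 undiseased samples. The value of miR-223 had an SE of 3.80 and is not reliable. Its raw Ct was 10.3 in plaque 2, 10.7 and 10.6 in undiseased artery 2 and 3, and 37.0 in plaque 3. In the other samples it was 20.8 to 23.3. The 2 endothelial strands miR-126-3p (-1.15, adjusted p = 0.291 in limma) and miR-126-5p (-2.02, adjusted p = 0.0655, unadjusted p = 0.0244) were not called, with mean levels of -3.14 to 0.58 in plaque and 0.22 to 1.54 in undiseased artery. Of the 3 tested heart and striated muscle miRNAs 0 passed in limma (miR-133b alone had an unadjusted p under 0.05), and miR-208 was detected in 2 plaque and 0 undiseased samples. The erythroid miR-451 gave -1.56 (adjusted p = 0.0878 in limma). The neuronal miR-124 was detected in 0 plaque and 3 undiseased samples and miR-9 in 1 plaque and 4 undiseased samples. The part of these cells in the levels of miR-30 was not tested.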

How the data were processed

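The authors deposited raw threshold cycles (Ct) of real-time PCR with FAM-labelled probes, 1 column per sample, in which 2249 of 4240 wells hold 40 (no amplification). No normalisation shows in the values. RNA was extracted with the RecoverAll kit, per the labels; instrument, preamplification, threshold and build were not given in the sources used here. For plaque 4 the title (replicate 4) was followed over the description (replicate 3).

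Panels 1 and 2 (335 and 182 mouse assays) were separated where the control RNAs begin again. Wells at 35 or above were treated as missing, and each sample was centred on the 124 miRNAs found in every sample. limma 3.58.1 under R 4.3.3 (two-sided, group alone) was fitted to 172 miRNAs, each found in 3 or more samples of both groups, with Benjamini-Hochberg adjustment over the 172. All 7 miR-30 members passed this filter. Errors of fold changes are limma's SE. Differences within a sample were compared by exact permutation over 70 arrangements. The limma steps were tried on simulated data with larger differences than the reported ones of miR-30 and no shift between panels. That trial does not show how well they work for the miR-30 members. With 4 samples a group and no stated RNA input, precision is limited.

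The members, the lists, the rule for named miRNAs and the tests were chosen with earlier results of these data known. That rule took the 7 members, the 5 miRNAs most like the guide strands, the 2 largest folds of each list and markers of cell types; miR-126-5p, miR-133a, miR-142-5p, miR-146a, miR-150, miR-223, miR-29b, miR-21 and miR-214 complete a count, and miR-384 and the undetected star strands were added after their values were seen. Sequences and positions are from RefSeq (GRCm38.p6), matched by name.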

Additional observations from a re-analysis of the deposited data

How the results depend on the processing

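Over the 25 alternatives, 24 of them planned, the 175 member values all stayed below 0, 119 kept their side of the threshold, 45 lost the call and 11 gained it. The 119 include members that were called in neither fit. Alternatives that changed only the filter, the undetected values, the block or the form of the test could not change a sign. Of the 7 members 4 were called lower in the reported fit. A detection cutoff of 38 and the replicate block left 2 called, miR-30c and miR-30d both times; the block called 22 of all 172 tested miRNAs lower, against 32 without it. The deviations of same-numbered samples from their group means correlated at 0.13, 0.19, -0.24 and -0.16 for replicates 1 to 4. With 4 samples a group, these values cannot decide whether same-numbered samples came from 1 mouse. Control RNAs, U6, the exact permutation test per miRNA, mean raw Ct as a covariate and a 2-fold minimum in the test left 0 of 7, with 2, 0, 4, 1 and 2 at an unadjusted p under 0.05. The share of all tested miRNAs at that unadjusted threshold was not counted. With 4 samples a group the lowest adjusted p of a member in the permutation test was 0.0964, and 0 of all 172 tested miRNAs passed it. Omission of plaque 2 and 3 together, chosen after seeing the data, also left 0, and raw Ct gave 7. Leaving out 1 sample at a time gave 0 to 7 members called. With the covariate the values of miR-30e, miR-30a* and miR-30e* came to -0.09, -0.16 and -0.16. The cause of these changes was not tested. No pair of members passed under either cutoff or without any 1 sample (0 pairs each time, 2 at an unadjusted p under 0.05 under both cutoffs). The smallest p of the exact permutation test was 0.0286, so after adjustment these counts of 0 do not decide whether a pair differs. Less the controls' panel shift, also chosen after seeing the data, the strand difference of miR-30e moved to 0.82, against 0.26.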

Other observations

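Other assays of the same hairpins and the same seed gave few values. miR-30b*, on panel 2, was detected in plaque 1 (Ct 31.96) and in undiseased artery 1 (Ct 29.995) and 2 (Ct 29.14) and read 40 in the other samples. miR-30c-1* and miR-30c-2* read 40 in all 8 samples.

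Outside the family, 1 other name among the 1679 mature miRNA names in the RefSeq table carries the seed of the miR-30 guide strands, miR-384-5p, shown here 5′ to 3′ with the seed in capitals.
miR-384-5p: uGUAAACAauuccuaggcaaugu
It comes from chromosome X (GRCm38.p6, chrX:105344332-105344354, minus strand) and differs from miR-30a at 10 of the 22 positions compared. It was detected in 0 of 4 plaque samples and in 2 of 4 undiseased samples, with a Ct of 28.19 in undiseased artery 1 and 33.965 in undiseased artery 3. Its other strand, miR-384-3p, was detected in undiseased artery 1 alone (Ct 31.98).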
